A study of Mus musculus with 2 samples.

Results

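The integrated stress response in the fetal mouse liver was described here through 9 genes: the eIF2 kinases Eif2ak1, Eif2ak2, Eif2ak3 and Eif2ak4, and the response genes Atf4, Ddit3, Trib3, Asns and Ppp1r15a. Members were taken by gene symbol through the annotation used here, which matched 9 of the 10 listed, and the tables held 43346 mouse gene rows in all. The remaining member, the alpha globin chaperone Ahsp, was not analysed here. The samples were 2 livers of B6NCrl mouse embryos at day 14.5, with 1 RNA library each, in 1 group, with no treatment or genetic change given in the labels. Total RNA above 200 nucleotides was sequenced from 10 ng with a protocol for small inputs (Smart-seq), to a depth of 39998450 estimated reads in replicate 1 and 28848861 in replicate 2. There is no second condition, so genes were compared with each other within a library, and the 2 livers show only the spread between samples. The labels give the livers different collection days, so liver, library and day cannot be told apart. With 2 libraries the smallest two-sided p of an exact sign permutation is 0.5, so no p-value is given.

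The integrated stress response joins 4 kinases to 1 substrate. Each kinase phosphorylates the alpha subunit of eIF2, the factor that brings the initiator tRNA to the ribosome, and phosphorylated eIF2 blocks its own exchange factor, eIF2B. General translation then slows, while a few messages with upstream start codons, Atf4 among them, are translated more. The kinases differ in what they sense: EIF2AK1 (HRI) haem shortage and mitochondrial stress, EIF2AK2 (PKR) double-stranded RNA, EIF2AK3 (PERK) unfolded protein in the endoplasmic reticulum, and EIF2AK4 (GCN2) uncharged tRNA. The liver is the main site of red cell formation at this age, and EIF2AK1 is known in red cell precursors for matching globin synthesis to haem. All of this is background on proteins and translation, which RNA levels do not measure.

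Markers of several cell types were detected. All 8 erythroid markers (Klf1, Alas2 and others) and all 8 hepatoblast markers (Alb, Afp and others) were at 1 TPM or more in both livers. All 5 markers each of megakaryocytes, neutrophils, macrophages, endothelium and stellate cells were as well. The same level was reached by 49.2% of protein-coding genes, so it alone does not show that a cell type was present. TPM is a read count divided by transcript length and scaled to the same total in each library, so it allows genes of unequal length to be compared. In this bulk tissue, fewer cells of a type and less RNA per cell cannot be told apart. The labels call each sample a single liver and also of pooled sex. The eIF2 gene on the Y chromosome, Eif2s3y, had 1580 reads in replicate 1 and 0 in replicate 2. Xist, the RNA of the inactive X, was at 0.09 and 14.02 TPM. These values go against the label of pooled sex. A difference of sex between the livers cannot be told apart from liver, library and day in any difference between replicates.

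The regulatory letters around the members' start sites give a first view of how they differ. RefSeq promoter windows (GRCm38.p6, 250 bases before to 50 from the start on) were found for all 9 members and searched on both strands. The C/EBP-ATF response element, to which ATF4 heterodimers bind, was searched as TGATGNAA and lay in 3.97% of 32851 mouse windows; among the members, Asns and Trib3 held it. The interferon-stimulated response element, searched as GAAA, any 2 bases and GAAA again, lay in 3.44% of windows and, among the members, in those of Eif2ak2 and Ppp1r15a. The 4 stretches are shown because they separate the ATF4-type from the interferon-type letters; each is written 5′ to 3′ on the gene's strand, with the match in capitals.
Asns, chr6:7693214-7693243, minus strand: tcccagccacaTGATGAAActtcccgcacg
Trib3, chr2:152344028-152344057, minus strand: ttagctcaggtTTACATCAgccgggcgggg
Eif2ak2, chr17:78882535-78882564, minus strand: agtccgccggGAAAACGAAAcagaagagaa
Ppp1r15a, chr7:45526469-45526498, minus strand: aaaataaaagGAAAGGGAAAtggcacggta
The Trib3 match is on the opposite strand, so its capitals show the reverse complement. The red cell factor motif of GATA1, AGATAA, lay in 11.2% of windows and in those of Ddit3 and Ppp1r15a. The CACCC-type motif of KLF1, searched as CCNCNCCC, was too common to separate genes, lying in 49.5% of windows and in 7 of the 9 members, Atf4 and Ppp1r15a being the others. The endoplasmic reticulum stress element, searched as CCAAT, any 9 bases and CCACG, lay in 0.119% of windows and in 0 members. A match here describes letters only, and no binding was measured.

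Among the kinases, Eif2ak1 stood far above the other three. Eif2ak1 (ENSMUSG00000029613.11, chr5:143817788-143904251, plus strand, GRCm38) was at 88.0 TPM in replicate 1 and 91.6 in replicate 2, from 15409 and 11147 reads, a mean of 89.8 ± 2.5 TPM (SD, n = 2). It held 90.3% ± 1.4 (SD, n = 2) of the summed TPM of the 4 kinases, which came to 96.4 in replicate 1 and 102.6 in replicate 2. Both livers thus gave most of their kinase RNA to the haem-regulated member, and the 2 values lay within 1.04-fold of each other.

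The remaining kinases were far below Eif2ak1, though above the minimum used here for detection, 1 TPM. By mean gene TPM, Eif2ak2 lay above 64.1% of protein-coding genes, Eif2ak4 above 61.9% and Eif2ak3 above 55.6%. Eif2ak2 (ENSMUSG00000024079.4, chr17:78852564-78882573, minus strand), the kinase activated by double-stranded RNA, was at 3.52 and 4.95 TPM from 311 and 293 reads. Eif2ak4 (ENSMUSG00000005102.9, chr2:118388618-118475234, plus strand), the amino acid sensor, was at 3.02 and 4.0 TPM from 599 and 530 reads. Eif2ak3 (ENSMUSG00000031668.10, chr6:70844515-70905245, plus strand), the endoplasmic reticulum kinase, was lowest at 1.86 and 2.08 TPM from 305 and 253 reads. Their shares of the summed kinase TPM were 4.24% ± 0.83 for Eif2ak2, 3.52% ± 0.54 for Eif2ak4 and 1.98% ± 0.07 for Eif2ak3 (SD, n = 2 each).

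Within each library the distance of Eif2ak1 from the others was larger than its spread between livers. Eif2ak1 was 25.0-fold above Eif2ak2 in replicate 1 (95% counting interval 22.3 to 28.0) and 18.5-fold in replicate 2 (16.5 to 20.9), a mean log2 difference of 4.43 ± 0.31 (SD, n = 2). Against Eif2ak4 the folds were 29.1 and 22.9, a mean log2 difference of 4.69 ± 0.25. Against Eif2ak3 they were 47.3 and 44.0, a mean of 5.51 ± 0.07. The order of the lower 3 was less clear. Eif2ak2 was 1.17-fold (1.01 to 1.34) and 1.24-fold (1.07 to 1.43) above Eif2ak4, and Eif2ak3 was 0.616 and 0.520 times Eif2ak4. The place of Eif2ak2 in that order rests on how reads were divided among transcripts, as the transcript values show. Eif2ak4 stayed above Eif2ak3, with a mean log2 difference of 0.82 by gene TPM and 0.86 on coding transcripts.

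**Figure D1:**
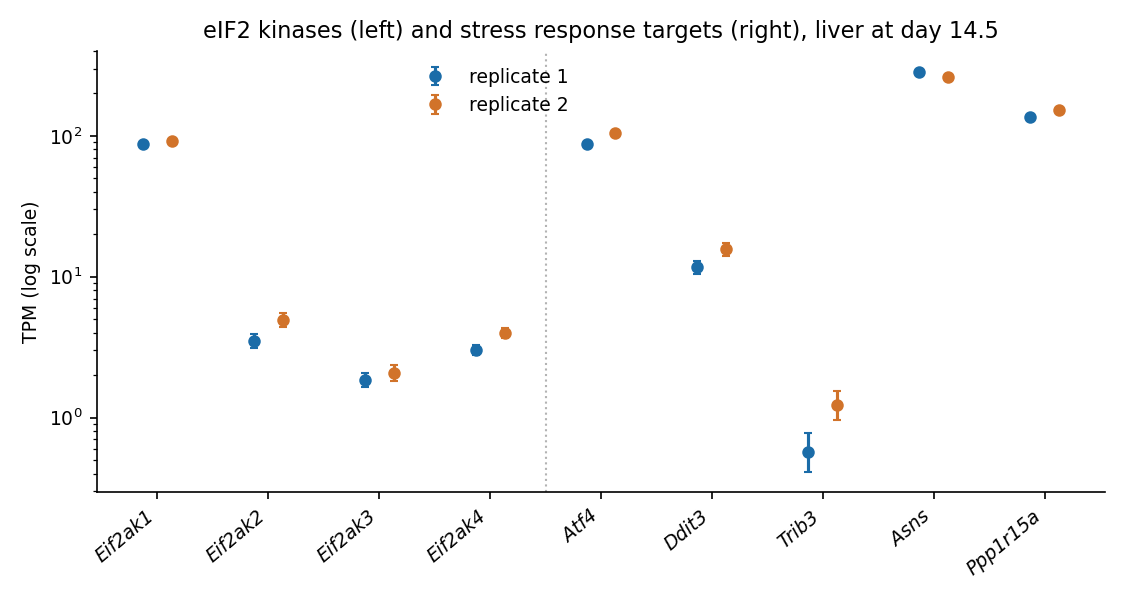
TPM (log scale) of the 4 eIF2 kinases and the 5 response genes in replicate 1 and replicate 2, with bars for the exact 95% Poisson interval of each count. Eif2ak1 lies with Atf4, Ppp1r15a and Asns at 87 TPM or above in both livers, and the other kinases lie below 5 TPM.

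Only part of the Eif2ak2 signal was assigned to its coding message. The coding transcript, of 4313 nucleotides, held 1.48 TPM in replicate 1 and 1.97 in replicate 2, or 42.0% and 39.8% of the gene's TPM. A transcript of 704 nucleotides that keeps an intron held 49.6% and 57.0% of the gene's TPM, yet its reads came to 14.2% and 16.9% of the gene's reads. TPM gives each read on the short form more weight. On protein-coding transcripts alone Eif2ak4 was highest of the lower 3 kinases at 3.03 and 3.82 TPM, and Eif2ak2 and Eif2ak3 (1.69 and 2.08 TPM) lay close together. The log2 difference of Eif2ak2 over Eif2ak4 then changed sign, from 0.26 ± 0.06 to -0.99 ± 0.06 (SD, n = 2), while Eif2ak1 stayed at 86.6 and 90.3 TPM.

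Among the response genes, Ppp1r15a also had much of its TPM outside its coding transcripts. Its main coding transcript, of 2333 nucleotides, held 67.0% ± 0.1 of the gene's TPM, and coding transcripts together came to 92.5 and 102.4 TPM. Another 31.8% and 32.2% lay on a transcript of 389 nucleotides that GENCODE M21 does not list, so its type is not known here. Other members had less outside coding transcripts: coding transcripts held all of Atf4's TPM in both livers, 91.6% and 95.2% of that of Asns, and 92.7% and 92.4% of that of Ddit3.

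**Figure D2:**
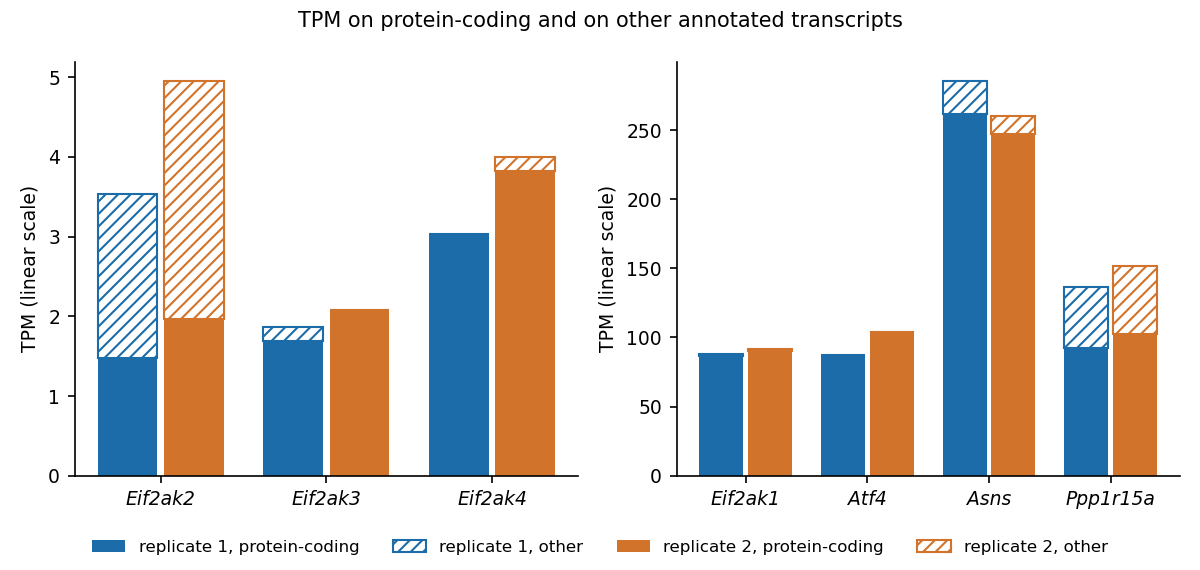
TPM (linear scale) on protein-coding transcripts (filled) and on transcripts of another or unknown type (hatched) of 7 members, stacked for replicate 1 and replicate 2. The hatched part is above the filled part in height only for Eif2ak2, where coding forms hold 1.48 and 1.97 TPM.

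The response genes ranged more widely than the kinases did below Eif2ak1. Asns (ENSMUSG00000029752.8, chr6:7675169-7693254, minus strand), which makes asparagine from aspartate and is a known ATF4 target, was highest at 285 and 260 TPM, from 21124 and 13782 reads. Ppp1r15a (ENSMUSG00000040435.10, chr7:45522916-45526268, minus strand), the stress-induced subunit that directs protein phosphatase 1 to eIF2, was next at 137 and 152 TPM. Atf4 (ENSMUSG00000042406.7, chr15:80255184-80257541, plus strand), the response's main transcription factor, was at 87.6 and 104.3 TPM from 5952 and 4926 reads. These 3 were high in both livers, and by gene TPM no value of one overlapped that of another. On coding transcripts Ppp1r15a (92.5 and 102.4 TPM) lay within the range of Atf4, so the order of these 2 rests on how reads were divided among transcripts.

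The other response genes were lower. Ddit3 (ENSMUSG00000025408.11, chr10:127290774-127296288, plus strand) encodes CHOP, a factor tied to cell death in prolonged stress, and was at 11.6 and 15.7 TPM from 372 and 347 reads. Trib3 (ENSMUSG00000032715.9, chr2:152337422-152344032, minus strand), a pseudokinase induced by ATF4 and CHOP, was at 0.57 TPM in replicate 1 (0.41 to 0.77) and 1.23 in replicate 2 (0.96 to 1.56), from 41 and 69 reads. Trib3 was the 1 member under 1 TPM in a liver, and the counting intervals of its livers did not overlap.

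The 2 genes that held the ATF4-type letters lay at opposite ends of this order. Asns was 501-fold above Trib3 in replicate 1 (369 to 698) and 211-fold in replicate 2 (167 to 272), a mean log2 difference of 8.35 ± 0.88 (SD, n = 2). Atf4 itself lay between them. Asns was 3.26-fold above Atf4 in replicate 1 and 2.49-fold in replicate 2, and Atf4 was 7.53-fold and 6.66-fold above Ddit3.

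Set against the kinases, Atf4 was level with Eif2ak1. Its ratio to Eif2ak1 was 0.995 (0.966 to 1.03) in replicate 1 and 1.14 (1.10 to 1.18) in replicate 2, a mean log2 difference of 0.09 ± 0.14 (SD, n = 2), smaller than its spread. Asns lay 3.24-fold and 2.84-fold above Eif2ak1, a mean of 1.60 ± 0.14 on the log2 scale. Ppp1r15a lay 1.55-fold and 1.66-fold above it, a mean of 0.68 ± 0.07, which came down to 0.14 ± 0.06 on coding transcripts. Expected counts without length scaling turned the sign of both Atf4 (-1.28) and Ppp1r15a (-0.69) over Eif2ak1, since the Eif2ak1 message is longer. Ddit3 was at 0.132 and 0.171 times Eif2ak1, and Trib3 at 0.00648 and 0.0134 times. Against the other 3 kinases the picture was different, since Atf4, Asns, Ppp1r15a and Ddit3 were each above all of them in both livers. Trib3 alone was below all 4 kinases, at 0.306 and 0.591 times the lowest of them, Eif2ak3. The 5 response genes summed to 522 and 533 TPM, against 96.4 and 102.6 for the 4 kinases.

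By count, 8 of the 9 members were at 1 TPM or more in both livers, beside 49.2% of 21474 protein-coding genes. A mean of 50 TPM or more was reached by 4 of the 9 (Eif2ak1, Atf4, Asns and Ppp1r15a), beside 7.44% of protein-coding genes.

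The members' messages also differ in the leader before the coding start, where upstream ATGs can delay ribosomes. In the GENCODE M21 sequence of each leading coding transcript, 6 of the 9 members had at least 1 upstream ATG, as did 46.9% of 10594 leading coding transcripts of genes with a mean of at least 1 TPM. Atf4 had 3 in a leader of 594 bases, and the frame of 1 of them overlapped the coding start out of frame, a feature of 15.2% of those transcripts. Ppp1r15a and Eif2ak3 had 3 each, Ddit3 and Asns 2 each, and Eif2ak2 had 1. The frames of Eif2ak2 and Eif2ak3 also overlapped the coding start, while Eif2ak1, Eif2ak4 and Trib3 had no upstream ATG. The sequences read for Eif2ak1 (4325 nucleotides) and Atf4 (1725) differ slightly in length from the transcripts quantified in the files (4330 and 1724), and the other 7 have the same length. These are counts of letters, and translation was not measured.

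Differences between the 2 livers were counted first over the better expressed members. Of the 5 members whose mean was at least 10 TPM, 0 differed by 1.5-fold or more on the TPM + 1 scale, beside 0.897% of 5576 genes, and 0 differed by 2-fold, beside 0.251%. At such background shares a count of 0 among 5 says nothing particular about the members, and the 4 members below that mean are not in it. In TPM, 8 members were higher in replicate 2 and 1, Asns, was lower, but 76.3% of the 5576 genes were also higher in replicate 2. Their median log2 ratio was 0.09 and that of the 5 members was 0.15. TPM was also replaced by counts scaled to library size with TMM factors, which align the bulk of genes. The median of all genes was then lower by 0.11, at -0.02, and Eif2ak1 turned from 0.06 to -0.06. That replacement also left out length scaling, and the part of the TMM factors in the shift was not separated.

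Relative to that shift, the larger differences were in low members. Ddit3 was 1.35-fold higher in replicate 2 (1.16 to 1.56), Eif2ak2 1.41-fold (1.19 to 1.65) and Eif2ak4 1.32-fold (1.18 to 1.49), while the interval of Eif2ak3, 0.943 to 1.33, included 1. Trib3 was 2.16-fold higher (1.45 to 3.26), which is 0.51 on the log2 scale of TPM + 1. Asns was 0.911 times its replicate 1 level (0.891 to 0.930). The intervals cover at most counting error, not the spread among livers. Cell type markers also moved between the livers: the 5 neutrophil markers summed to 2514 and 1806 TPM and the 5 megakaryocyte markers to 541 and 679, while the erythroid sums were 2885 and 3046. Their part in the members' differences was not tested, nor was that of sex.

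**Figure D3:**
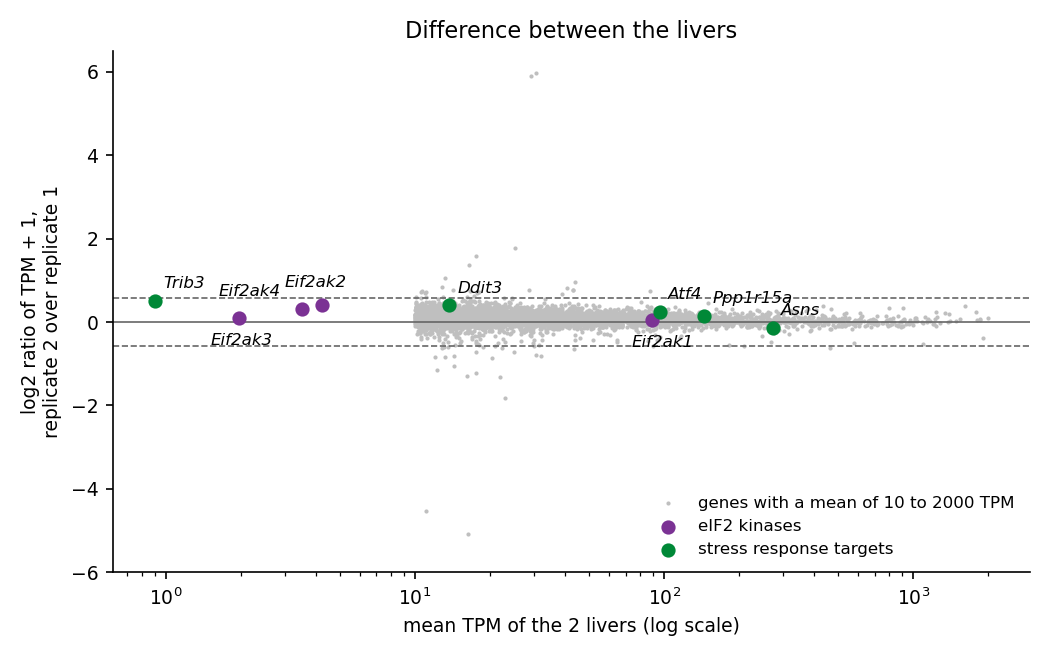
log2 ratio of TPM + 1, replicate 2 over replicate 1, against mean TPM (log scale), for genes with a mean of 10 to 2000 TPM (grey) and the 9 members (coloured); dashed lines mark 1.5-fold. All 9 members lie between the dashed lines, with Trib3 highest at 0.51 and Asns lowest at -0.13.

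The substrate and exchange factor of the pathway were well above the typical gene. All 9 genes of eIF2 and eIF2B were measured and 8 were at 1 TPM or more in both livers, beside 49.2% of protein-coding genes. Their median was 31.5 and 40.65 TPM, against 0.99 and 1.07 for all protein-coding genes. Eif2s1, the alpha subunit that the kinases phosphorylate, was at 77.8 and 76.7 TPM, and Eif2s2, the beta subunit, at 71.8 and 71.3. The 5 eIF2B subunits lay between 23.5 TPM (Eif2b5 in replicate 1) and 41.4 TPM (Eif2b1 in replicate 2). In both livers Eif2ak1 was therefore above its substrate's RNA, at 88.0 beside 77.8 and at 91.6 beside 76.7 TPM.

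The gamma subunit was the exception to even levels. Eif2s3y, the Y-linked copy, was at 22.1 TPM in replicate 1 and had 0 reads in replicate 2, which allows up to 0.0604 TPM at its length. Eif2s3x, the X-linked copy, was at 31.5 and 54.3 TPM. The sum of both copies was nearly equal, at 53.6 and 54.3 TPM (54.0 ± 0.50, SD, n = 2). Of the 74 genes of the pathway lists with a mean of at least 10 TPM, only these 2 differed by 1.5-fold, 1 in each direction. The share was 0.897% of all 5576 genes at that level. Both of these 2 genes are sex-linked.

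Genes of the phosphatases that reverse the mark were also expressed as RNA. Ppp1r15b, the constitutive partner of Ppp1r15a, was at 27.5 and 33.5 TPM, so Ppp1r15a was 4.97-fold above it in replicate 1 (4.80 to 5.14) and 4.54-fold in replicate 2 (4.37 to 4.71). The catalytic subunits Ppp1ca, Ppp1cb and Ppp1cc were at 353 and 368, 38.5 and 40.9, and 118 and 138 TPM.

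Genes whose proteins hold back or relay to the kinases were all detected as RNA, 13 of 13, beside 49.2% of protein-coding genes. Their median was 24.1 and 23.1 TPM. The chaperones Hspa8 (910 and 934 TPM) and Hsp90aa1 (514 and 553) were highest, the latter a known partner of EIF2AK1. Prkra, an activator of EIF2AK2, was lowest by mean at 5.30 and 7.86 TPM. Hspa5, which binds EIF2AK3 in the unstressed reticulum, was at 387 and 374 TPM. RNA for the mitochondrial relay to EIF2AK1 was detected, with Oma1 at 8.45 and 11.2 TPM and Dele1 at 18.4 and 20.9.

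Levels ranged widely among ATF4's partner factors and known targets. Of the 10 listed partner factors (9 of the bZIP family and Nupr1, a chromatin protein counted again among the further targets), 7 were at 1 TPM or more in both livers, with a median of 3.90 and 3.45 TPM. Nfe2l2 was highest at 32.7 and 34.7 TPM, then Cebpg at 11.9 and 11.6, and Batf2 was lowest at 0.07 and 0.05. Of 26 further ATF4 targets, 19 were detected in both, with a median of 21.9 and 25.2 TPM. The serine synthesis enzymes Phgdh (169 and 179 TPM) and Psat1 (117 and 106) led that list, and Fgf21, a stress hormone, had 0 reads in either liver. The 20 tRNA synthetases, some of them known ATF4 targets, were all detected and evenly expressed, from Wars (22.6 and 24.0 TPM) to Nars (89.2 and 89.4) and Farsb (90.2 and 91.3).

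Other stress pathways gave a background to these values. All 16 genes of the other endoplasmic reticulum stress branches were detected, from Ern1 at 2.35 and 2.73 TPM to Calr at 281 and 284 and Hspa5. Interferon response genes were lower, with 11 of 16 detected and a median of 2.08 and 1.96 TPM. Irf9, a factor of the interferon response, was at 11.3 and 9.12 TPM, and Mx1 was lowest at 0.29 and 0.09. Eif2ak2, itself an interferon-responsive gene, was above that list's median in both livers by its gene TPM. Its coding transcript (1.48 and 1.97 TPM) was below that median in replicate 1 and level with it in replicate 2. The median is of whole-gene TPM, so the latter sets a part of 1 gene beside whole genes. Of the haem genes, Alas2, the first enzyme of haem synthesis in red cells, was at 833 and 812 TPM, Hmox1, which degrades haem, at 49.0 and 46.2, and Bach1, a haem-sensing repressor, lowest at 3.40 and 4.69. Across the pathway lists, 97 of 113 genes were detected in both livers (85.8%), beside 49.2% of protein-coding genes.

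**Figure D4:**
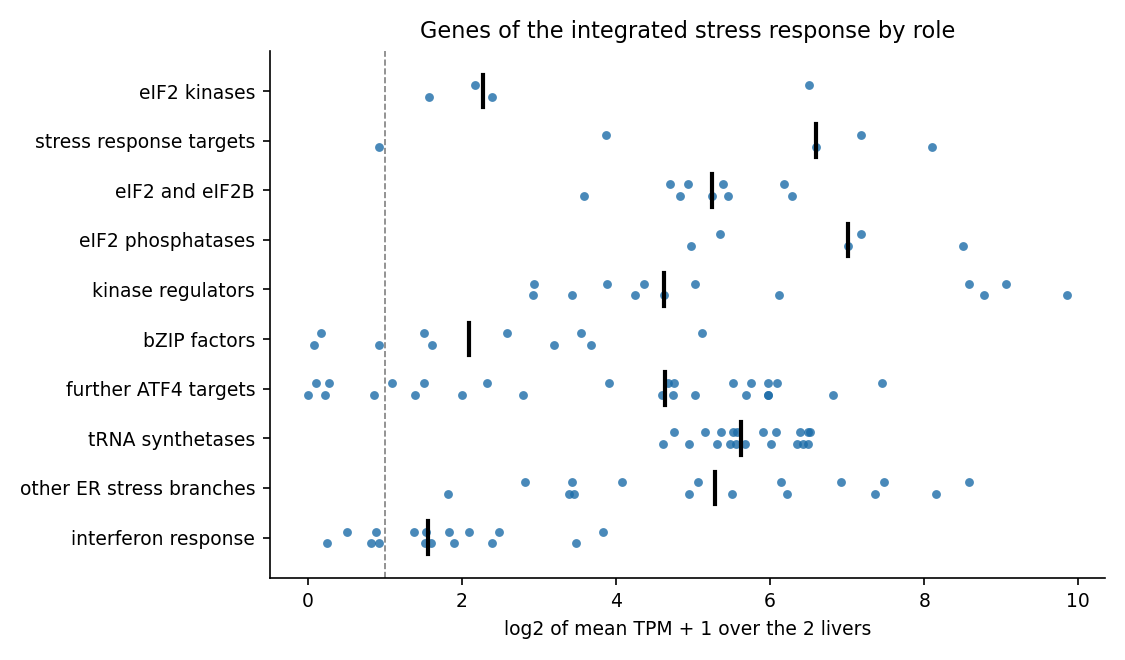
log2 of the mean TPM + 1 of each gene of the pathway lists by role, with 1 point per gene and a bar at each list's median; the dashed line marks 1 TPM. The 20 tRNA synthetases lie in a narrow band from 23.3 to 90.7 TPM, while the bZIP factors and interferon response genes have medians below 4 TPM.

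Reads of some members could be shared with genes on the opposite strand. Annotated exons of Eif2ak1 overlap those of Aimp2 and Ankrd61 over 659 of 5670 bases, and Eif2ak3 overlaps Gm43292 over 485 of 5428. The overlaps were 221 of 5113 bases for Eif2ak2, 81 of 1713 for Ddit3 and 11 of 2936 for Ppp1r15a, while Eif2ak4, Atf4, Trib3 and Asns had none. The sources do not say if counting used strand, and reads of a gene and its antisense partner then cannot be told apart.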

How the data were processed

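Total RNA of 2 livers was sequenced, 1 library each. Per the deposited description of the files, values were made on mm10 with GENCODE M4; for aligner and counter, names were not given in the sources used here. The authors deposited expected counts (estimated reads per gene or transcript, not normalized), TPM over all rows, spike-ins included, and the percent of a gene's TPM held by each transcript, per the file headers. The libraries were prepared with spike-ins, which held 7.35% and 6.72% of reads; 37059776 and 26908926 reads lay on mouse genes. Rows with numeric identifiers (26248) were left out.

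Symbols, positions and transcript sequences came from GENCODE M21 by unversioned identifier, and promoter windows from RefSeq. Of 175 listed symbols, 173 matched directly and 1 by a synonym; Ahsp was not analysed here. Members and lists were chosen with earlier results of these data known. Every member is named; of each pathway or context list the 2 highest and the lowest genes by mean TPM, all eIF2, eIF2B and phosphatase genes by value or range, and genes differing 1.5-fold whose mean was at least 10 TPM. Hspa5, Oma1 and Dele1 among the kinase regulators, and Hmox1, were chosen after their values were seen. The globins, also in that rule, are not described one by one, and 1 gene that the rule names is not reported here.

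Folds between genes are ratios of TPM within a library, with 95% intervals from exact Poisson (levels) and binomial (ratios) limits on the expected counts, and mean ± SD over the livers. Replicate ratios used log2 of TPM plus a pseudocount of 1, which understates differences of low genes. These limits treat reads as independent. Amplified reads are not independent molecules, so the intervals can be too narrow even for counting error, and they leave out the spread among livers. Alternatives were other pseudocounts, filters and scalings, coding transcripts alone, counts without length scaling and each liver alone. Python 3.11.15, pandas 2.3.3, scipy 1.17.1 and, for TMM factors only, edgeR 4.0.16 in R 4.3.3 were used. The calling of fold differences was tested on simulated data. Those data held Poisson counting noise only, with no spread between livers or from amplification, so the test does not cover such spread.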

Additional observations from a re-analysis of the deposited data

How the results depend on the processing

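The log2 values of the kinases depended on how transcript length was treated. On protein-coding transcripts alone, Eif2ak1 over Eif2ak2 was 5.69, Eif2ak2 over Eif2ak4 -0.99, Eif2ak2 over Eif2ak3 -0.13 and Ppp1r15a over Eif2ak1 0.14. On expected counts, which favour long messages by construction, the kinase values were 5.44 (Eif2ak1 over Eif2ak2), -0.90 (Eif2ak2 over Eif2ak4), 0.12 (Eif2ak2 over Eif2ak3) and 1.02 (Eif2ak4 over Eif2ak3). The values over Eif2ak1 were then -1.28 for Atf4, -5.19 for Ddit3, -7.94 for Trib3, 0.38 for Asns and -0.69 for Ppp1r15a. With posterior mean TPM, Eif2ak1 over Eif2ak3 was 5.34. With each liver alone, Atf4 over Eif2ak1 was -0.0071 and 0.19. The share on coding transcripts was 83.1% of reads for Eif2ak2 and 93.4% for Ppp1r15a. On counts scaled to library size with TMM factors, without length scaling, the log2 ratio of Eif2ak1 between livers was -0.060. Among members passing the filter on level, the count at 1.5-fold was 0 in each of the alternatives run. Trib3, below that filter, passed 1.5-fold at a pseudocount of 0.1 (log2 ratio 0.99). It also passed on counts scaled to library size with TMM factors (0.72) and on TPM without globin genes (0.64). Both of these change the scale to which the pseudocount of 1 is added, so its weight on Trib3 changes too. The 0.72 is therefore not an effect of the TMM factors alone. With the filter lowered to 1 TPM, 8 members were tested and 2.56% of 11741 genes passed. Detected pathway genes numbered 97 at 1 TPM, 103 at 0.5 TPM and 82 at 5 TPM. Ahsp against the alpha globins, expected counts for member levels and a comparison of kinase proteins were not run. No paired analysis was possible because there is 1 group. Depth limits Trib3 most, at 41 and 69 reads.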

Other observations

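Several ATF4 targets with low counts had unequal levels in the 2 livers. Chac1, which degrades glutathione, was at 0.23 TPM in replicate 1 and 1.41 in replicate 2, from 15 and 63 reads, a 6.13-fold difference (95% counting interval 3.45 to 11.6). Gdf15, a stress-induced hormone, was at 0.99 and 2.28 TPM, from 54 and 87 reads, a 2.30-fold difference (1.62 to 3.30). Both were higher in replicate 2, as Trib3 and Ddit3 were. Nupr1, a stress-induced chromatin protein, was at 2.60 and 1.10 TPM, from 85 and 21 reads, or 0.423 times its replicate 1 level (0.249 to 0.688). Slc7a11 was at 0.12 and 0.03 TPM, from 17 and 8 reads, or 0.25 times its replicate 1 level (0.0931 to 0.610). The length its reads were divided by was 3477 bases in replicate 1 and 9124 in replicate 2, so its ratio depends on that length too. Ddit4, an inhibitor of mTORC1 signalling, was at 0.30 and 0.13 TPM, from 20 and 6 reads, and the interval of its ratio, 0.142 to 1.12, included 1. Of the 26 further targets, 14 were higher in replicate 2 and 11 in replicate 1, beside 10763 and 5082 of all protein-coding genes. These genes were chosen after their values were seen, and with 1 library per liver no test was made.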
